A study of Oryza sativa Indica Group and Oryza sativa Japonica Group with 20 samples.

Results

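Narrow stretches of the repressive histone mark H3K27me3 that lay away from the active mark H3K4me3 were described in male meiocytes of 2 rice cultivars. Within each cultivar and mark, the peaks of both replicate libraries on chromosomes 1 to 12 were merged, and a merged region was called reproducible when it held a peak of each replicate. The regions described here are the reproducible H3K27me3 regions under 1500 bp wide whose gap to the nearest reproducible H3K4me3 region was over 1000 bp. They are called narrow distal regions below. There were 3542 of them among 8219 reproducible H3K27me3 regions in IR64 and 7099 among 14872 in Azucena, or 10641 of 23091 in all. The regions were chosen by the positions and widths of the called peaks, so their number, width, fold enrichment and minimum gap to H3K4me3 are descriptions.

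The series covers wild-type plants of IR64, an Indica rice, and Azucena, a Japonica rice per the labels. Meiocytes, the cells that enter meiosis, had been taken in clusters from dissected anthers in prophase of the first division, with glass capillaries and without somatic cells per the labels' protocol. CUT&Tag, in which an antibody guides a transposase to cut and tag nearby chromatin, was run for H3K4me3 and H3K27me3 with 2 libraries per mark and cultivar, 8 in all. The remaining samples of the series, from flag leaves or from bisulfite sequencing, were not used here. The labels do not tie replicates to separate plants, so every p-value below measures only the spread between libraries, which may be technical. The regions were formed once per cultivar from both libraries, so the values of a cultivar's 2 libraries are not independent either. Each library was made from many cells, so a mark present in a fraction of the cells and a weaker mark in all of them cannot be told apart.

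H3K27me3 is deposited by Polycomb repressive complex 2 and is the best-known mark of facultative repression, in plants mostly over developmentally silenced genes. H3K4me3 marks the start of transcribed genes. In rice and other plants some loci carry both marks, and H3K27me3 frequently covers whole gene bodies as broad stretches. The genes at these regions were not analysed here, since no gene table known to match the coordinates of the peak lists was at hand.

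The H3K27me3 libraries of the cultivars differed in depth and background, and these values accompany every comparison between them. The uniquely aligned reads, as listed by the authors, came to 47.91 M and 9 M (M, 1000000 reads) in IR64 replicates 1 and 2 and to 10.11 M and 10.28 M in Azucena. The genome-wide background coverage, computed from the deposited fold and p of each peak, was 2.4 and 1.85 reads in IR64 but 6.08 and 5.9 reads in Azucena. IR64 replicate 1 therefore stood apart, with the most aligned reads of the 4 and a background under that of either Azucena library. The H3K4me3 libraries had between 9.22 M and 13.71 M uniquely aligned reads and backgrounds of 6.28 to 7.71 reads.

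Narrow distal regions were the most numerous of the 4 classes formed by the width and gap limits. They made up 43.1% of the reproducible H3K27me3 regions of IR64 (95% Wilson interval 42.0 to 44.2) and 47.7% of those of Azucena (46.9 to 48.5); these intervals, like all below, cover counting error only. They covered 2.93 Mb in IR64 and 5.92 Mb in Azucena, which was 34.7% and 34.8% of the sequence under reproducible H3K27me3. For comparison, wide regions at the same distance from H3K4me3 numbered 490 in IR64 and 1732 in Azucena, and narrow regions within 1000 bp of H3K4me3 or overlapping it numbered 3409 and 4149. Azucena thus had 2.00 times as many narrow distal regions as IR64. That ratio was 1.02 when only peaks of at least 4-fold enrichment were kept, with 2572 regions in IR64 and 2636 in Azucena. It was 1.23 after coverage was thinned to the lowest background, with 3483 and 4273. At a −log10 q of at least 5 it was 2.53, with 2550 and 6439. Each of these settings was applied to the peaks of both marks before regions were formed anew. The counts are therefore not subsets of the regions above, and some regions entered the class because H3K4me3 peaks were dropped. The number in both cultivars also depended on the requirement of a peak in each library. Replicate 1 alone gave 7025 such regions in IR64 and 9189 in Azucena, and replicate 2 alone gave 5043 and 9480.

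Most narrow distal regions were simple in structure. The median width was 783 bp in IR64 (interquartile range 584 to 1045, smallest 287) and 790 bp in Azucena (572 to 1081, smallest 270). In 98.6% and 98.7% of them a single peak of each replicate formed the region. At most 500 bp wide were 528 regions of IR64 (14.9%) and 1147 of Azucena (16.2%). An IR64 region 1 bp inside the width limit, on chromosome 1 from 5516124 to 5517622, had folds of 3.09 and 3.79, and one just outside, 1500 bp wide on chromosome 6 from 29352111 to 29353610, had folds of 4.15 and 5.63. The corresponding Azucena pair had folds of 6.12 and 6.60 inside the limit and 4.09 and 4.37 outside. At the gap limit, the closest region inside lay 1003 bp from H3K4me3 in IR64, with folds of 2.36 and 2.31, and 1 bp past the limit in Azucena, with folds of 5.93 and 5.36. The closest regions outside lay at 1000 bp in both cultivars, with folds of 3.65 and 4.83 in IR64 and of 2.53 and 2.38 in Azucena.

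Fold enrichment at the summit, as the authors' peak caller gave it against the local background, was moderate in the narrow distal regions. Its median was 4.02 (interquartile range 3.25 to 5.01) in IR64 replicate 1 and 4.12 (3.35 to 4.98) in replicate 2. In Azucena it was 3.26 (2.65 to 4.17) and 3.37 (2.71 to 4.33). Both IR64 medians were above both Azucena medians. The cultivar means of these medians were 4.07 ± 0.0712 and 3.32 ± 0.0777 (SD, n = 2 libraries each), a 1.23-fold difference with an exact two-sided permutation p of 0.333, the smallest that 2 against 2 libraries allow (adjusted p 0.333 over 3 comparisons). The difference of 0.75 was 0.976 at a −log10 q of at least 5 and 0.573 after thinning. It was 0.0043 with peaks of at least 4-fold enrichment only, a filter that cuts on the fold itself.

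Enrichment and statistical strength went in opposite directions between the cultivars. The median −log10 q of the narrow distal regions was 7.63 and 6.69 in the IR64 libraries and 10.8 and 11.04 in the Azucena libraries. The median coverage at the summit was 28 and 23 reads in IR64 and 51 and 50 reads in Azucena, over a median local background of 5.34 and 4.43 against 13.2 and 12.6 reads. Azucena regions therefore had more reads over a higher background, and lower folds. A −log10 q of at least 5 in both replicates was reached by 2210 regions in IR64 (62.4%, 60.8 to 64.0) and 5825 in Azucena (82.1%, 81.1 to 82.9). A fold of at least 4 in both replicates was reached by 1473 (41.6%, 40.0 to 43.2) and 1680 (23.7%, 22.7 to 24.7).

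**Figure D1:**
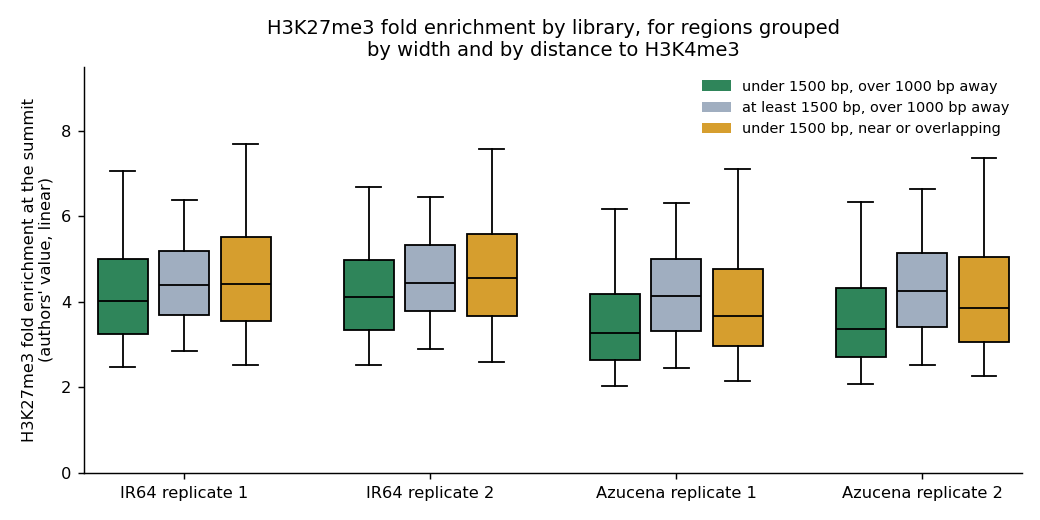
H3K27me3 fold enrichment (authors' value, linear axis) of 3 classes of reproducible H3K27me3 regions in each of the 4 libraries. Boxes span the quartiles with the median as a line, and whiskers run from the 5th to the 95th percentile; the narrow distal regions, in green, have the lowest median of the 3 classes in every library.

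Against the other classes, narrow distal regions had the lowest median fold in each of the 4 libraries. Wide regions at the same distance from H3K4me3 had medians of 4.39 and 4.44 in IR64 and 4.13 and 4.25 in Azucena. Narrow regions near or overlapping H3K4me3 had medians of 4.41 and 4.55 in IR64 and 3.67 and 3.86 in Azucena. These are descriptions, since the same peaks assigned the classes. Few of the strongest regions were narrow and distal: of the 100 reproducible H3K27me3 regions of highest mean fold, 23 in IR64 and 28 in Azucena were. In both cultivars that was under the class's share of all regions.

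The replicates gave like values for a given region, more so in Azucena. The Spearman correlation of the folds of replicates 1 and 2 was 0.763 over 3542 regions in IR64 and 0.876 over 7099 in Azucena, where every region had been required to hold a peak in both libraries. The larger of a region's folds exceeded the smaller by a median factor of 1.14 in IR64 and 1.11 in Azucena. The summits of the replicates lay a median of 124 bp apart in IR64 and 82 bp apart in Azucena. Under the same width and gap limits, 3211 further regions were called in IR64 replicate 1 alone and 1011 in replicate 2 alone, with median folds of 3.82 and 3.64. In Azucena 1523 and 1486 were called in 1 replicate alone, with median folds of 2.68 and 2.75.

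Narrow distal regions were spaced more widely in IR64 than in Azucena. The median gap from a region to the nearest other reproducible H3K27me3 region was 7476 bp in IR64 (quartiles 2416 and 20565) and 2177 bp in Azucena (792.5 and 6798). In IR64 1168 regions (33.0%) had their neighbour more than 10000 and up to 50000 bp away and 333 (9.40%) had none within 50000 bp. In Azucena these classes held 1151 (16.2%) and 157 (2.21%), whereas 2197 (30.9%) had a neighbour within 1000 bp, against 479 (13.5%) in IR64. The Azucena libraries also held more H3K27me3 peaks, 17362 and 17623 against 12629 and 10134. The part of the peak number in the spacing was not tested.

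**Figure D2:**
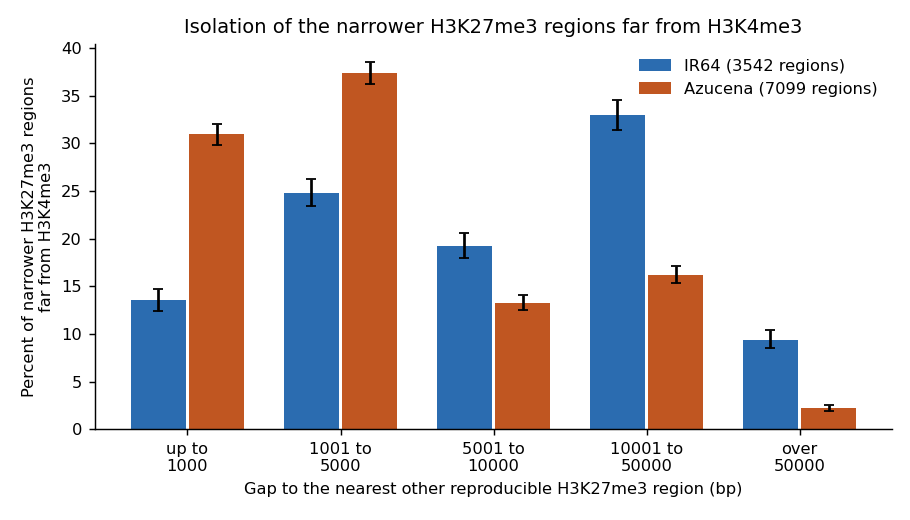
Percent of the narrow distal regions of each cultivar (bars, with 95% Wilson intervals) by the gap in bp to the nearest other reproducible H3K27me3 region. The IR64 bars are highest above 10000 and up to 50000 bp, with 33.0%, and the Azucena bars above 1000 and up to 5000 bp, with 37.4%.

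Counted against the peaks of a single library, 30.4% and 36.0% of the narrow distal regions had no other H3K27me3 peak within 10000 bp in IR64 replicates 1 and 2. In Azucena this was true of 14.9% and 14.8%. The cultivar means were 33.2% ± 3.93 and 14.9% ± 0.0896 (SD, n = 2 libraries each), a difference of 18.3 percentage points without overlap between the groups (exact two-sided permutation p 0.333, the smallest possible, adjusted p 0.333). After thinning to the lowest background the difference was 8.53 points, and among peaks of at least 4-fold enrichment it was 3.93 points. It was 26.04 points at a −log10 q of at least 5. With isolation counted over 5000 and 20000 bp in place of 10000 bp it was 25.9 and 10.6 points.

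Within each library, narrow distal regions were less often isolated than the wide distal ones. Of the wide regions, 40.4% and 46.9% in IR64 and 27.7% and 27.5% in Azucena had no peak within 10000 bp. The mean difference was −11.6 points (SD 1.35 over 4 libraries), and all 4 libraries showed it. It was −5.05 points among peaks of at least 4-fold enrichment, and −22.2 and −6.09 points with isolation counted over 5000 and 20000 bp. An exact two-sided sign-flip permutation test gave p 0.125, the smallest that 4 libraries allow, and the same value after adjustment over 4 comparisons. The classes were formed once per cultivar from both of its libraries. The 4 differences, here and in the next contrast, are therefore not independent, although the test treats them so. The median gap to the nearest peak differed by −3213 bp on average (SD 229.5), again in 4 of 4 libraries with an exact permutation p of 0.125. A wide region can hold several merged peaks: 74.5% of the wide distal regions of IR64 and 80.6% of those of Azucena were made of 1 peak per replicate.

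The contrast with narrow regions near H3K4me3 was smaller and changed sign with the enrichment required of a peak. Of those regions, 36.4% and 41.3% in IR64 and 25.2% and 25.3% in Azucena had no peak within 10000 bp. The mean difference, narrow distal minus near, was −8.02 points (SD 2.73), in 4 of 4 libraries (exact permutation p 0.125, adjusted p 0.125). Among peaks of at least 4-fold enrichment the sign turned, to +3.901 points (exact permutation p 0.25). That filter was applied to the H3K4me3 peaks too, so regions near weaker H3K4me3 could become distal. The values with and without it therefore do not compare the same classes of regions.

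Isolated narrow distal regions had the higher folds but fewer reads at the summit. Members of the class within 5000 bp of another reproducible H3K27me3 region numbered 1359 in IR64 and 4851 in Azucena, and those with none within 10000 bp numbered 1501 and 1308. Median fold was 3.32 near a neighbour and 4.66 away from one in IR64 replicate 1, and 3.39 and 4.60 in replicate 2. In Azucena it was 2.95 and 4.23 in replicate 1, and 3.04 and 4.32 in replicate 2. The isolated regions were thus 1.36 to 1.43 times higher in fold in all 4 libraries. With peaks of at least 4-fold enrichment only, most of this difference was gone. The log2 ratio of fold near a neighbour over away from one was −0.099 in IR64 and −0.064 in Azucena, against −0.46 and −0.51 without that filter. The filter cuts on the fold itself, above every median fold near a neighbour, and redraws the regions and their neighbours. The smaller ratio therefore cannot tell whether the difference holds for stronger regions.

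Summit coverage ran the other way, also under that filter, with a smaller log2 ratio of 0.34 in IR64 and 0.35 in Azucena against 0.78 and 0.98 without it. The median was 36 reads near a neighbour and 21 away from one in IR64 replicate 1, and 31 and 18 in replicate 2. In Azucena it was 64 and 32 reads in replicate 1, and 62 and 32 in replicate 2. The local background fell further than the coverage, with medians of 10.2 near and 3.31 away and of 8.396 and 2.65 reads in IR64, and of 19.9 and 6.10 and of 19 and 5.90 reads in Azucena. Since the fold is the summit coverage over the background, each with 1 read added, a higher fold here went with a lower coverage and a background about 3 times lower.

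**Figure D3:**
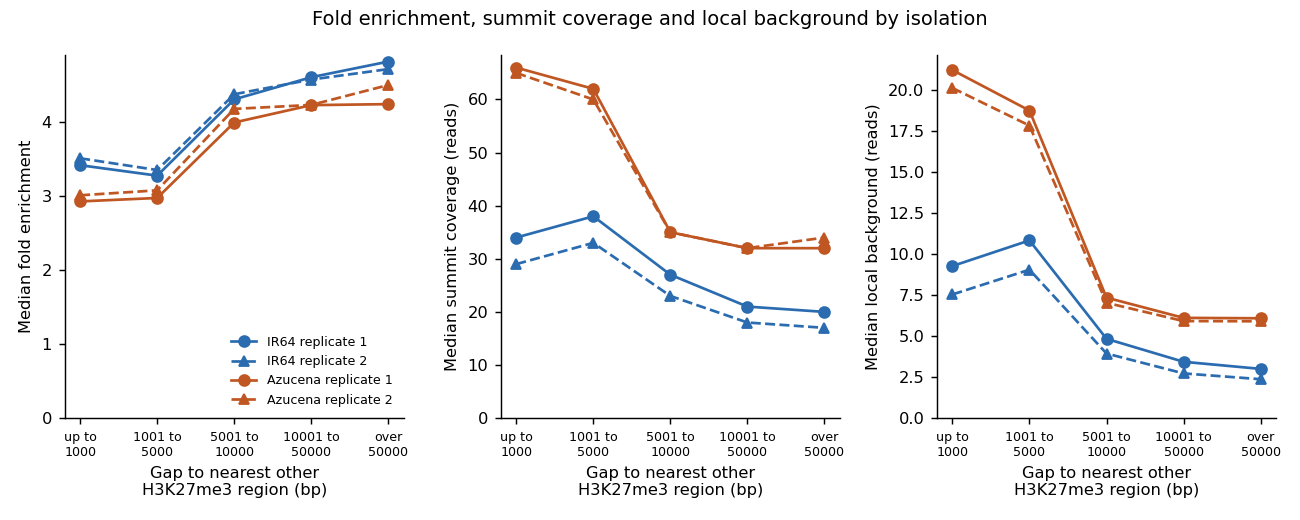
Median fold enrichment, median summit coverage (reads) and median local background (reads) of the narrow distal regions, by the gap in bp to the nearest other reproducible H3K27me3 region, with 1 line per library. Fold is higher, and coverage and background are lower, beyond 5000 bp than at smaller gaps in all 4 libraries.

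The same relation appeared over single regions. The Spearman correlation of fold with the gap to the nearest H3K27me3 region was 0.466 and 0.464 in IR64 (3542 regions) and 0.420 and 0.422 in Azucena (7099 regions). For summit coverage it was −0.448 and −0.472 in IR64 and −0.423 and −0.408 in Azucena, and for background it was −0.600 and −0.604 and −0.582 and −0.581. Regions of a library share its depth, and neighbouring regions can share the window in which the background was taken, so these values describe the lists. Of the regions with no neighbour within 50000 bp, 30.03% and 27.9% in IR64 and 52.9% and 53.5% in Azucena had a local background at the genome-wide level. Of those with a neighbour within 1000 bp, 0.209% and 0.418% in IR64 and 1.96% and 2.18% in Azucena had such a background. Fold was also correlated with width, at 0.207 and 0.191 in IR64 and 0.340 and 0.345 in Azucena.

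The nearest reproducible H3K27me3 region of a narrow distal region was of the same class for 55.3% of them in IR64 and 61.2% in Azucena. The class, the largest of the 4, made up 43.1% and 47.7% of all reproducible regions. It was a narrow region near or overlapping H3K4me3 for 31.1% and 18.5%, and a wide region far from H3K4me3 for 6.13% and 11.9%. When regions with gaps of at most 5000 bp were chained, 2570 regions (72.6%) stood alone in IR64 and 3489 (49.1%) in Azucena. Runs of 2 held 792 (22.4%) and 2052 (28.9%), and runs of 3 or more held 180 (5.08%) and 1558 (21.9%).

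Regions in runs had lower folds than those alone. In IR64 the median fold was 4.36 and 4.38 in replicates 1 and 2 for regions alone, and 2.90 and 3.00 in runs of 3 or more. In Azucena it was 3.67 and 3.77 against 2.67 and 2.74. The longest IR64 run lay on chromosome 3 from 25926848 to 25936160, with 5 regions that covered 3288 of 9313 bp, mean folds of 2.28 to 3.86 and 31047 bp to the nearest H3K4me3 region. The longest Azucena run lay on chromosome 4 from 17762267 to 17782469, with 8 regions that covered 6432 of 20203 bp, mean folds of 1.75 to 4.17 and 3045 bp to H3K4me3. No other reproducible region of either mark lay inside these runs.

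The distance to H3K4me3 was nearly the same in both cultivars. The median gap to the nearest reproducible H3K4me3 region was 5698.5 bp in IR64 (quartiles 2953 and 11188) and 5775 bp in Azucena (3032.5 and 11416). Wide distal regions had medians of 5685.5 and 5761.5 bp. In IR64 470 regions (13.3%) lay within 2000 bp, 1097 (31.0%) beyond that and up to 5000 bp, and 940 (26.5%) farther and up to 10000 bp. In Azucena these distances held 910 (12.8%), 2219 (31.3%) and 1879 (26.5%).

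Fold varied little with the distance to H3K4me3. Their Spearman correlation was 0.0687 and 0.0475 in IR64 and 0.0416 and 0.0525 in Azucena. Median fold within 2000 bp was 3.82 and 4.07 in IR64 and 3.23 and 3.33 in Azucena. The few regions over 50000 bp from H3K4me3, 71 in IR64 and 100 in Azucena, had the highest medians of the distance classes, 4.48 and 4.47 in IR64 and 4.07 and 4.20 in Azucena. Their median gap to other H3K27me3 regions was also larger, 22458 bp in IR64 and 5329.5 bp in Azucena. Of these, 35 in IR64 (49.3%) and 50 in Azucena (50%) lay between 30 and 70% of the chromosome's length, against 32.6% of all narrow distal regions in each cultivar.

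Some narrow distal regions did touch H3K4me3 signal that only 1 replicate had called. Such a peak overlapped 511 regions in IR64 (14.4%, 13.3 to 15.6) and 724 in Azucena (10.2%, 9.52 to 10.9). No H3K4me3 peak of either replicate lay within 1000 bp of 2950 (83.3%, 82.0 to 84.5) and 6189 (87.2%, 86.4 to 87.9). The H3K4me3 peaks involved had a median H3K4me3 fold of 2.82 and 2.87 in IR64 replicates 1 and 2 and 2.89 and 2.90 in Azucena. For all H3K4me3 peaks of those libraries, reproducible ones included, it was 3.52, 3.38, 3.70 and 3.64. Other peaks called in 1 replicate only were not compared, so the lower fold cannot be tied to the overlap. The H3K27me3 fold of the regions overlapped by such a peak was higher than that of regions with no H3K4me3 peak within 1000 bp. It was 4.39 and 4.45 against 3.97 and 4.07 in IR64, and 3.67 and 3.87 against 3.25 and 3.33 in Azucena.

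Narrow distal regions occurred on all 12 chromosomes. Per Mb of chromosome up to the last called base, chromosome 1 was densest in both cultivars, with 10.4 regions in IR64 and 20.9 in Azucena, and chromosome 5 sparsest, with 7.25 and 15.2. Their share of all reproducible H3K27me3 regions differed less between these chromosomes. On chromosomes 1 and 5 it was 43.3% and 40.8% in IR64 and 45.4% and 44.8% in Azucena. Across the 12 chromosomes the densities of the cultivars had a Spearman correlation of 0.699. With the density of reproducible H3K4me3 regions their correlation was −0.126 in IR64 and 0.0629 in Azucena. As a share of a chromosome's reproducible H3K27me3 regions, they ranged from 36.4% on chromosome 10 (32.4 to 40.6) to 49.9% on chromosome 12 (45.6 to 54.2) in IR64. In Azucena they ranged from 44.0% on chromosome 7 (41.1 to 47.0) to 51.5% on chromosome 11 (48.6 to 54.3).

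**Figure D4:**
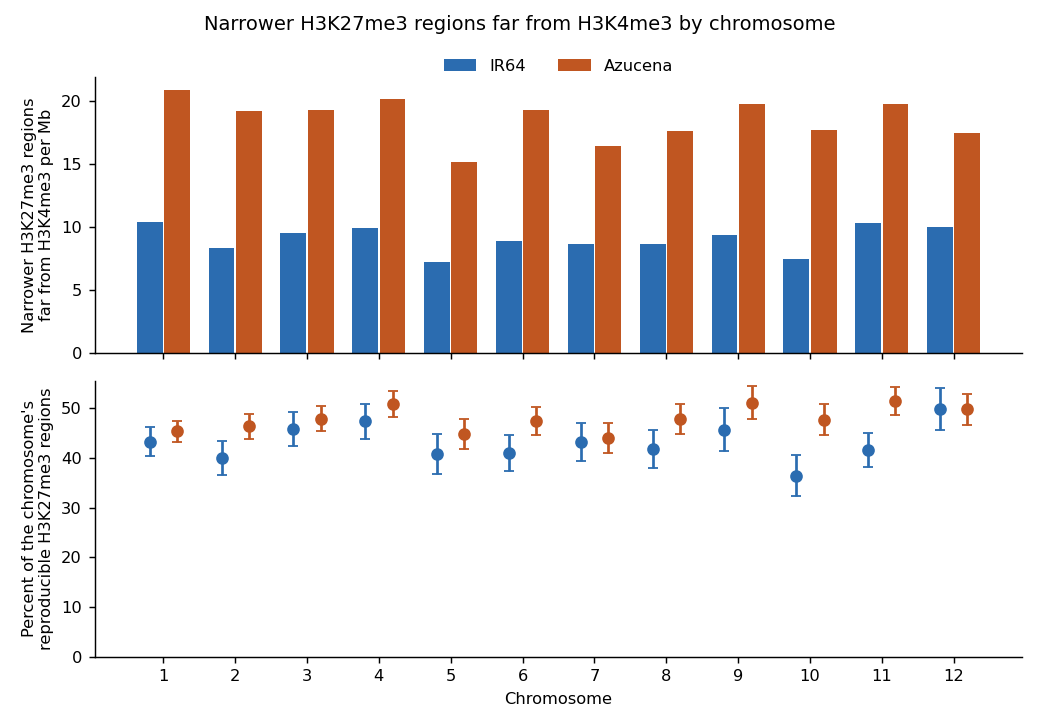
Top, narrow distal regions per Mb of called chromosome length on each of the 12 chromosomes. Bottom, their percent of the chromosome's reproducible H3K27me3 regions with 95% Wilson intervals; chromosome 5 has the lowest density in both cultivars, with 7.25 and 15.2 per Mb.

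Along the chromosomes they were thinnest near the middle. With the called length cut into 10 deciles, decile 5 held 5.39% of them in IR64 and 5.92% in Azucena, and decile 8 held the most, 14.03% and 12.3%. As a share of the H3K27me3 regions in the same decile they varied less, between 36.9% and 46.3% in IR64 and between 45.1% and 51.2% in Azucena. The median gap to H3K4me3 was longest in decile 5, at 8878 bp in IR64 and 9248 in Azucena, and was 4502 and 5022 bp in decile 1. The outer 2 Mb at either end held 481 regions in IR64 (13.6%, 12.5 to 14.7) and 1057 in Azucena (14.9%, 14.1 to 15.7), with 12.4% and 12.7% of the called length. All reproducible H3K27me3 regions stood there at 15.9% and 15.5%.

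**Figure D5:**
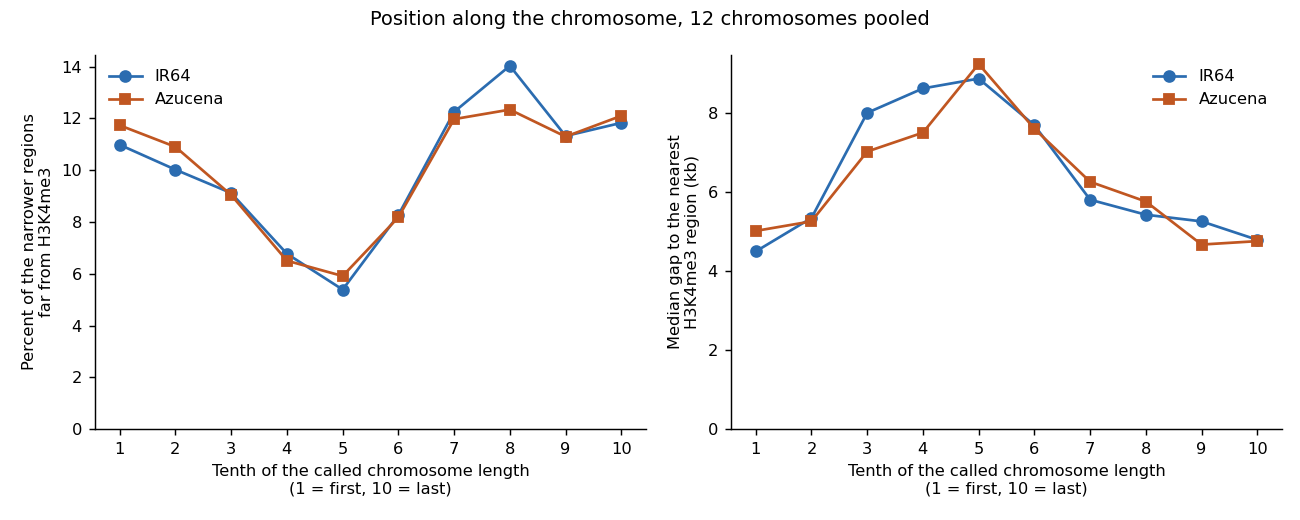
Left, percent of the narrow distal regions in each decile of the called chromosome length, 12 chromosomes pooled. Right, their median gap in kb to the nearest reproducible H3K4me3 region; in both cultivars decile 5 has the lowest percent, 5.39% and 5.92%, and the longest gap.

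In bins of 1 Mb, each in the coordinates of the cultivar's own list, the median number of narrow distal regions was 8 in IR64 and 18 in Azucena. The bin of chromosome 7 from 2000001 to 3000000 held the most in both cultivars, 31 of 43 reproducible H3K27me3 regions in IR64 and 53 of 89 in Azucena. Over 385 bins of the same number and chromosome the Spearman correlation between cultivars was 0.573. The builds of the lists are not given, and the last called base of a chromosome differs between the cultivars. A bin of the same number therefore need not hold the same sequence. No narrow distal region was found in 4 bins of IR64 and 5 of Azucena.

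The strongest narrow distal regions were short and far from other H3K27me3 regions in most cases. In IR64 the highest mean fold was on chromosome 1 from 41137967 to 41138375, with folds of 18.4 and 18.2, summit coverages of 75 and 72 reads and 17950 bp to the nearest H3K27me3 region. Next came chromosome 1 from 36650364 to 36650674 (16.7 and 17.9) and chromosome 4 from 15359742 to 15360131 (18.3 and 15.4). The fourth, on chromosome 8 from 20870631 to 20870938, had folds of 19.1 and 13.9, and the fifth, on chromosome 1 from 2750102 to 2750388, had 16.2 and 16.1. All 5 were at most 409 bp wide, and the first 2 overlapped an H3K4me3 peak of 1 replicate. Among all reproducible H3K27me3 regions of IR64 the first of them ranked 8 by mean fold.

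In Azucena a single region stood far above the others. It lay on chromosome 2 from 36468051 to 36468324, with folds of 29.96 and 30.5 and summit coverages of 650 and 712 reads over local backgrounds of 20.7 and 22.4. It ranked 1 among all reproducible H3K27me3 regions and ended at the last base called on that chromosome. The next were chromosome 12 from 21396575 to 21397343 (folds 11.2 and 12.5), chromosome 3 from 27696349 to 27696841 (11.4 and 12.03), chromosome 9 from 21627846 to 21628298 (11.7 and 10.3) and chromosome 12 from 21757132 to 21757501 (9.599 and 10.9). These 4 had 67 to 85 reads at the summit, and their backgrounds were at the genome-wide level of 6.08 and 5.9 reads. Those on chromosome 12 overlapped an H3K4me3 peak of 1 replicate. In all, 1 narrow distal region of Azucena and 0 of IR64 lay within 1000 bp of a called chromosome end, among 9 and 6 reproducible H3K27me3 regions there.

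The 5 most isolated narrow distal regions of each cultivar had mean folds of at least 4.28 in IR64 and 3.72 in Azucena. For all narrow distal regions, the library medians averaged 4.07 and 3.32. In IR64 the most isolated lay on chromosome 12 from 11903085 to 11903602, 604530 bp from any other reproducible H3K27me3 region, with folds of 6.17 and 4.91 and 20 and 13 reads at the summit. The next, on chromosome 3 from 20997995 to 20998466, had a gap of 565276 bp and unequal folds of 7.64 and 3.50. The next 3, on chromosome 6 from 15412033 to 15413183, chromosome 8 from 18768706 to 18769695 and chromosome 7 from 9727664 to 9728425, had gaps of 384698, 332944 and 285312 bp. In Azucena the most isolated lay on chromosome 8 from 16163417 to 16164655, with a gap of 400437 bp, folds of 6.70 and 7.57 and 56 and 62 reads. The next 4 had gaps of 328708, 251985, 219310 and 188467 bp and mean folds of 4.71, 4.08, 3.72 and 4.22. They lay on chromosome 5 from 4594579 to 4595761, chromosome 6 from 15597812 to 15598522, chromosome 7 from 11963069 to 11964299 and chromosome 5 from 14341861 to 14342780. An H3K4me3 peak of 1 replicate overlapped the IR64 regions on chromosomes 12 and 6 and the Azucena region on chromosome 8.

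The narrow distal regions farthest from H3K4me3 were not the strongest or the most isolated. In IR64 the largest gap was 148028 bp, on chromosome 4 from 5552386 to 5553289, with folds of 4.92 and 5.12, followed by 146478 bp on chromosome 9 from 8000047 to 8001011 (4.02 and 3.73). The third was 137499 bp, on chromosome 4 from 5532943 to 5533512 (4.76 and 4.81). In Azucena the largest was 156561 bp, on chromosome 4 from 16050223 to 16051109, with folds of 3.53 and 4.49, followed by 142621 bp on the same chromosome from 16064452 to 16065049 (2.96 and 3.04). The third was 130413 bp, on chromosome 12 from 16565948 to 16566513 (3.25 and 4.64). In both cultivars the first of these and another of the 3 lay on chromosome 4, 13342 bp apart in Azucena.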

How the data were processed

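The 8 meiocyte CUT&Tag peak lists were used, 1 per library. Each deposited row gave a score (not used), a fold enrichment (a ratio) over local background and, for the summit, −log10 of its p-value and q-value, as deposited by the authors; positions were counted 1-based, in each cultivar's own list. The submitters' processing notes name MACS2 2.1.0, fastp 0.20.1, Bismark 0.22.3 and Bowtie2, without roles. The build, control and duplicate handling are not given in the sources used here. Other values such as read numbers came from a table deposited by the authors; the bisulfite table and flag-leaf samples were not used here.

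Peaks were merged within a mark and cultivar when they overlapped or touched (Python 3.11.15, numpy 2.4.6, pandas 2.3.3, scipy 1.17.1). A region's fold in a library is that of its strongest peak. Fold and p were inverted for summit coverage and background, assuming a Poisson tail and 1 read added to both terms of the fold; coverage came out whole, within 0.05 reads, in 100% of peaks. The functions were tested on simulated data. Thinning drew no reads anew. It scaled the summit coverage and background of each called peak to the lowest background among the libraries of its mark. Peaks were then dropped when their recomputed p missed the strictest limit of those libraries. Peak edges stayed as called, so thinning is not a recount at equal depth. Chromosome length is the last called base, a lower bound. Cultivars were compared by exact permutation of libraries, and classes by exact sign-flip permutation, two-sided, with Benjamini-Hochberg adjustment. Regions named by position are, per cultivar, the 5 of highest mean fold, the 5 most isolated, the 3 farthest from H3K4me3, those beside each limit, the longest run and the fullest 1 Mb bin. The members, limits and lists were chosen with earlier results of these data known.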

Additional observations from a re-analysis of the deposited data

Results flagged for a closer look

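Peaks of Azucena on unplaced contigs were left out of the comparisons. Of 34 reproducible H3K27me3 regions there, 16 met the same width and gap limits. No control libraries were at hand for them, and IR64 had 0 peaks on contigs. A gap on a short contig can end at the contig's edge, so the number of regions far from H3K4me3 there is not comparable with the chromosomes.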

How the results depend on the processing

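In all, 224 values of 14 results were recomputed, and 79 of 80 tested values kept their direction. Those 79 include the values with the replicate number as a block, which could not differ from the main ones. They also include the fold difference between cultivars at a fold of at least 4, which was only 0.0043. The value that reversed was isolation against narrow regions near H3K4me3, which turned to +3.901 points among peaks of at least 4-fold enrichment. That filter was applied to both marks and redrew the classes, and the cause was not tested. Thinning to the lowest background was chosen after seeing the data, as were the near and far ratios of fold and coverage, which kept their direction under every setting. At a fold of at least 4, a filter that cuts on the fold itself, the log2 ratio of fold shrank to −0.099 in IR64 and −0.064 in Azucena. No p could pass 0.05 in these designs, so a p says nothing about stability.

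The share of narrow distal regions among reproducible H3K27me3 regions moved with nearly every setting. In IR64 and Azucena it was 44.5% and 49.8% at a −log10 q of at least 5, and 63.6% and 51.4% at a fold of at least 4. Both limits were applied to the peaks of both marks, so H3K4me3 peaks were dropped too. It was 40.8% and 43.1% with peaks within 500 bp merged, 47.2% and 50.5% with a reciprocal overlap of 50%, and 35.9% and 41.6% with H3K4me3 peaks of either replicate. Width limits of 1000 and 2000 bp gave 30.8% and 47.8% in IR64 and 32.8% and 55.2% in Azucena. Gap limits of 500 and 2000 bp gave 46.6% and 37.4% in IR64 and 51.5% and 41.6% in Azucena. Thinning gave 42.9% in IR64 and 40.9% in Azucena. There, as at a fold of at least 4, IR64 had the higher share, the reverse of the order without these settings.

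Leaving out 1 library at a time gave shares of 38.7% to 55.6% in IR64 and 44.4% to 54.0% in Azucena, and 3184 to 7025 and 6598 to 9480 regions. The Azucena number was 2636 at a fold of at least 4 and 4273 after thinning. The outer 1 Mb held 6.83% in IR64 and 7.21% in Azucena, the outer 5 Mb 34.2% and 36.1%, and the outer 2 Mb 13.3% in Azucena at a fold of at least 4.

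With the replicate number as a block, the differences between cultivars, 0.75 in fold and 18.3 points in isolation, stay the same by arithmetic. Only the p can change, and it was 0.5 for both (exact sign-flip permutation). The labels do not say that a number marks a shared batch, and regions are not matched between cultivars, so whether same-numbered libraries deviate together could not be checked.

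The narrow distal regions of IR64 rest on few reads, with a median summit coverage of 28 and 23, against 51 and 50 in Azucena. Uniquely aligned reads were 47.91 M and 9 M in IR64 and 10.11 M and 10.28 M in Azucena. The part of sequencing depth in these coverages was not tested.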
